A study of Mus musculus with 18 samples.

Results

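The genes described here are 37 antioxidant genes of the mouse testis, chosen by symbol for their known work in removing superoxide and peroxides, in the glutathione and thioredoxin systems and around the transcription factor NRF2. All 37 were found among the 20979 gene symbols of the deposited table, and all 37 passed the filter on low values. Testis RNA was sequenced from ICR mice, an outbred stock, aged 10 weeks, in 18 libraries that form 6 groups of 3. The control group and the AOS group (10 mg/kg) had no other treatment in the labels, which do not spell out AOS. The other groups all had a high fat diet and STZ (streptozotocin, a toxin of insulin-producing cells). They are HFD_STZ, HFD_STZ_AOS with AOS at 10 mg/kg, HFD_STZ_AOS_FMT and HFD_STZ_control_FMT, where FMT is read here as a transfer of fecal microbiota labelled with AOS at 10 mg/kg or with control. The labels give no length of the diet, no STZ dose and no donor details, and none of them says that the libraries came from separate animals. The p-values therefore reflect how far these samples spread, and that spread can be technical.

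Superoxide dismutases turn superoxide into hydrogen peroxide, which catalase, glutathione peroxidases and peroxiredoxins then reduce. Glutathione and thioredoxin carry the electrons for that reduction and are recharged by NADPH-dependent reductases, while glutathione transferases couple glutathione to reactive products. Sperm carry forms of their own, among them the thioredoxins TXNDC2 and TXNDC8 and the reductase TXNRD3, and GPX4 is built into the capsule of sperm mitochondria. NRF2, held back by KEAP1, is known to drive many of these genes through the antioxidant response element.

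The deposited table names no unit, and its values were taken as RPKM (reads scaled for transcript length and for all mapped reads of the library) from their sums and their lowest steps. Levels are in this unit, and a value with ± is a group mean and its SD, with n = 3 where no n is given. A log2 difference is the limma estimate after adding 1 to the RPKM, given with its standard error, and it understates the change of low genes. RPKM values keep no total count. Steps between low values gave a relative depth of 0.972 to 1.047 times the middle, in a window that cannot show a wide spread of depth. The markers of testis cell types were present in every library. Their summed level ran from 2538 to 5183 RPKM for 6 Leydig cell markers, 287 to 404 for 8 Sertoli cell markers, 48.0 to 60.3 for 6 spermatogonium markers and 484 to 587 for 6 spermatocyte markers. It ran from 1283 to 1443 RPKM for 6 round spermatid markers and from 51129 to 67898 for 8 elongating spermatid markers. Markers of other cells ran from 36.8 to 91.8 RPKM for 8 macrophage genes, 5.67 to 9.01 for 5 endothelial, 33.6 to 50.3 for 5 peritubular myoid and 66.5 to 211 for 6 erythroid genes. Libraries stood apart in the sum of 8 epididymis markers, which was above 200 RPKM in replicate 3 of control, HFD_STZ_AOS and HFD_STZ_AOS_FMT and in replicate 2 of HFD_STZ_control_FMT, up to 332, and between 1.28 and 45.8 in the other 14. The sum of 6 adipocyte markers ran from 14.5 to 149.7 RPKM. In such bulk tissue, fewer cells of a type and less RNA per cell cannot be told apart.

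The 37 genes ran from 1.74 to 2562 RPKM in mean level, and the glutathione transferases, glutathione peroxidases and thioredoxins led. Gstm5, a mu-class glutathione transferase of brain and testis, was the highest at a mean of 2562 RPKM over the 18 libraries (range 2345 to 2979) and held rank 10 among all genes. Gpx4, the peroxidase of lipid hydroperoxides, followed at 1342 RPKM (1179.7 to 1483) and held rank 26. Hmox2, the constitutive haem oxygenase, stood at 662 RPKM (617 to 747). Txndc2, a thioredoxin of the sperm tail, stood at 627 RPKM (547 to 678). Gstm1, a mu-class transferase of many tissues, stood at 559 RPKM (406 to 715), and Sod1, the copper and zinc superoxide dismutase of the cytosol, at 307 RPKM (261 to 341).

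The somatic and sperm forms of the same enzyme differed widely in level. Txndc8 at 187 RPKM and Txnrd3 at 181 RPKM were far above Txn1, the thioredoxin of somatic cells, at 14.2 RPKM, Txnrd1 at 7.05 and the mitochondrial Txnrd2 at 1.74. Prdx4, the peroxiredoxin of the secretory pathway, was the highest of the peroxiredoxins among the 37 at 128 RPKM, while Prdx6b, not one of the 37, was listed at 143. The known NRF2 targets Hmox1, the inducible haem oxygenase, and Nqo1, a quinone reductase, were low at 8.34 and 1.86 RPKM. Nfe2l2, which encodes NRF2, stood at 12.6 RPKM and Keap1 at 17.3. The median coefficient of variation within a group was 7.432% for the 37 genes and 7.644% for the 13874 genes tested, so the set was measured with about the same spread as other genes.

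**Figure D1:**
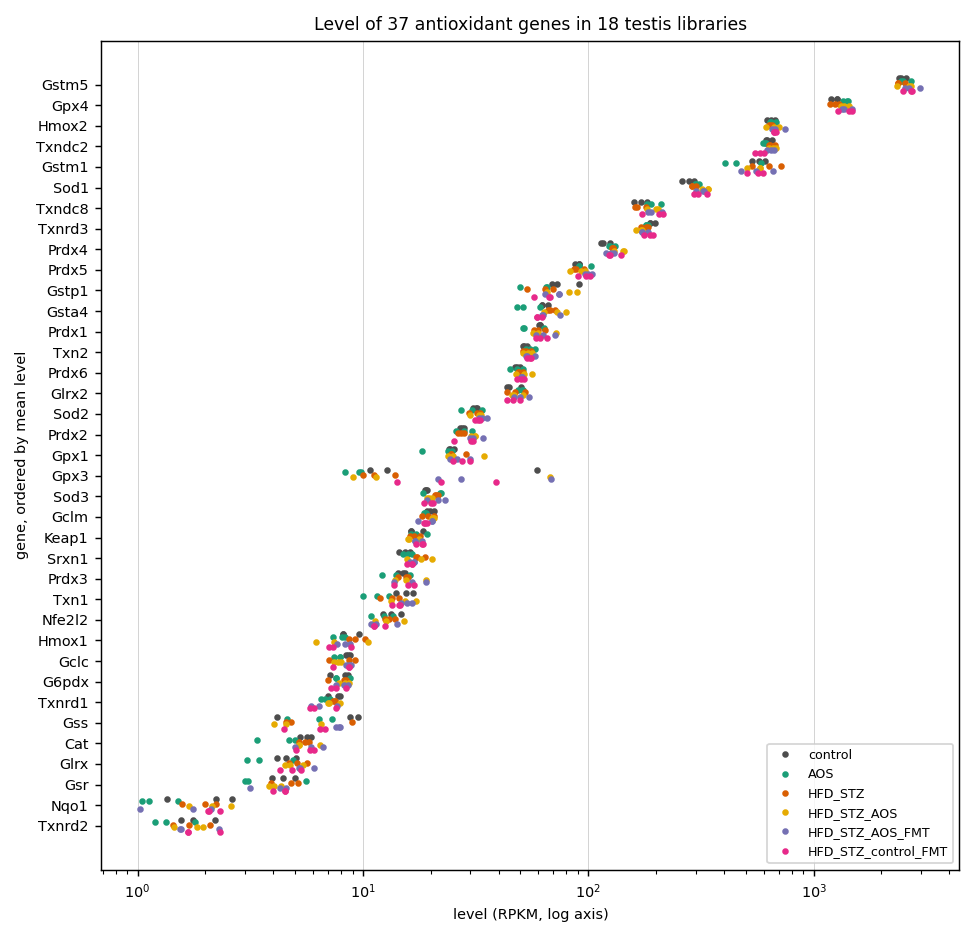
Level of each of the 37 genes in RPKM (log axis) in all 18 libraries, one point per library coloured by group, with genes ordered by mean level. Gstm5 (2562 RPKM) and Gpx4 (1342) stand highest, Nqo1 (1.86) and Txnrd2 (1.74) lowest, and Gpx3 is the gene whose libraries lie farthest apart (8.30 to 68.0 RPKM).

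The antioxidant response element has the core TGACNNNGC, and the promoters of the 37 genes were searched for it on both strands, from 250 bases before to 50 bases after each RefSeq transcription start (build GRCm38.p6). RefSeq windows were matched by symbol for 31 of the 37, all but Sod3, Prdx6, Gclc, Gsr, Gsta4 and Hmox1. The core was found in 9 of the 31 (29.03%), against 13.99% of the 27025 genes with a window, tested here or not. Some genes have more than 1 window, and by window the core was in 9 of 44, against 12.39% of all 32851. The 9 were G6pdx, Gclm, Gstm5, Nfe2l2, Prdx1, Sod1, Srxn1, Txndc2 and Txnrd1. The GC box GGGCGG, on either strand, was found in 27 of 31 (87.1%) against 38.2% of genes, and in 31 of 44 windows against 35.66% of all windows. The windows of 5 genes are shown, written 5′ to 3′ on the strand of the gene with the core in capitals. In Txnrd1, Prdx1, Gclm and Sod1 the core lies on the opposite strand and so reads as its reverse complement. Txnrd1, Prdx1 and Gclm are textbook NRF2 targets, Sod1 passed a test below, and Txndc2 encodes a thioredoxin of the sperm tail.
Txnrd1: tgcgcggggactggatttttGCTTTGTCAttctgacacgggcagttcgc
Prdx1: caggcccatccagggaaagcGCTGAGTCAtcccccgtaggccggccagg
Gclm: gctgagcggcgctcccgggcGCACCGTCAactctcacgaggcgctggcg
Sod1: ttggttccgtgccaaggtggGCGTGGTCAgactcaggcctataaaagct
Txndc2: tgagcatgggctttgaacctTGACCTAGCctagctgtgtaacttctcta
They lie at chr10:82859094-82859142 (plus strand), chr4:116685446-116685494 (plus), chr3:122245403-122245451 (plus), chr16:90220686-90220734 (plus) and chr17:65639931-65639979 (minus), in that order. In the GENCODE vM21 annotation the Prdx1, Gclm and Sod1 windows lie before the gene, and those of Txnrd1 and Txndc2 lie in an intron of a longer model of the same gene. The core in Prdx1 began 133 bases before the start, in Sod1 56, in Txnrd1 92, in Gclm 134 and in Txndc2 203. A match of letters is a description and shows no binding.

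Differences between groups were tested with limma over all 13874 genes, with p-values adjusted by Benjamini and Hochberg within a comparison and a threshold of 0.05. No member passed in any of the 6 comparisons of 2 groups, and the percentages in brackets give the same share over all genes. Comparisons against control share the control libraries, and those against HFD_STZ share the HFD_STZ libraries.

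What the diet and STZ did was read from HFD_STZ against control, where limma called 0 of 37 members (0%) and the smallest adjusted p was 0.456. At an unadjusted p under 0.05 there were 4 members (8.3%), 2 higher (6.16%) and 2 lower (2.13%). Of the 37, 17 had a fitted difference above 0 (59.5%) and 20 below, with a median of -0.01 against 0.02 for all genes, and without the 4 libraries of high epididymal markers 22 were higher and 15 lower. The groups did not overlap for 5 members (16.3%), 4 of them higher (11.7%) and 1 lower (4.53%).

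In AOS against control limma called 0 of 37 (0%), with a smallest adjusted p of 0.161, and 8 had an unadjusted p under 0.05 (13.9%), 3 higher (5.46%) and 5 lower (8.4%). Above 0 were the fitted differences of 13 members (40.2%), with 24 below, with a median of -0.08 against -0.03 for all genes. The groups did not overlap for 10 members (22.5%), 2 higher (7.76%) and 8 lower (14.8%).

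In HFD_STZ_AOS against HFD_STZ limma called 0 members (0%), with a smallest adjusted p of 0.202. The 5 members with an unadjusted p under 0.05 (12.5%) were all higher (6.23%), and 0 were lower (6.26%). The fitted difference was above 0 for 26 members (47.7%) and below for 11, with a median of 0.02 against -0.01, and without the 4 libraries of high epididymal markers 15 were higher and 22 lower. The groups did not overlap for 6 members (17.2%), 5 higher (7.37%) and 1 lower (9.8%).

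With AOS-FMT against HFD_STZ limma called 0 members (0.0144%), with a smallest adjusted p of 0.222. The 8 members with an unadjusted p under 0.05 (14.5%) were all higher (6.31%), and 0 were lower (8.14%). They were Sod1, Gpx3, Gpx4, Prdx2, Prdx5, Txn1, Txndc8 and Gstm5. The fitted difference was above 0 for 25 members (43.7%), with a median of 0.05 against -0.02, and the groups did not overlap for 8 members (19.4%), 7 higher (7.82%) and 1 lower (11.6%).

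With control-FMT against HFD_STZ limma called 0 members (0.00721%), with a smallest adjusted p of 0.125. Of the 3 members with an unadjusted p under 0.05 (16.2%), Gpx4 and Txndc8 were higher (6.06%) and Txndc2 was lower (10.1%). The fitted difference was above 0 for 22 members (41.1%), with a median of 0.03 against -0.03, and the groups did not overlap for 7 (24%), 2 higher (8%) and 5 lower (16%). Between AOS-FMT and control-FMT limma called 0 members (0.0216%), with a smallest adjusted p of 0.905. Txndc2 was the 1 member with an unadjusted p under 0.05 (4.58%) and was higher with AOS-FMT (2.92% higher and 1.66% lower over all genes). In this pair 28 members were fitted above 0 (53.9%), which became 30 without the 4 libraries of high epididymal markers and 17 without the 6 libraries high in the epididymis gene Crisp1, where 1 library is left in each group. The groups did not overlap for 4 members (8.42%), all higher (5.15%), with 0 lower (3.27%).

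The AOS and HFD_STZ main effects each set 6 libraries against 6 within the 4 groups without FMT, and each gave 1 called member. The HFD_STZ main effect compared HFD_STZ and HFD_STZ_AOS with control and AOS, and Gsta4 passed alone among the 37 members, where 2.85% of all genes passed. The AOS main effect compared AOS and HFD_STZ_AOS with control and HFD_STZ, and Sod1 passed alone, where 2.34% of all genes passed. Both members were higher, as were 2.4% and 1.3% of all genes, while 0.454% and 1.05% of all genes were called lower. At an unadjusted p under 0.05 there were 7 members for HFD_STZ (18.8%), 6 higher (14.3%) and 1 lower (4.42%), and 6 for AOS (20.7%), 4 higher (8.59%) and 2 lower (12.1%). The fitted difference was above 0 for 27 members with HFD_STZ (64.7%; 24 with median ratio scaling and 19 with the length trend removed) and for 15 with AOS (43%; 19 with median ratio scaling). The 2 sides overlapped for every member with HFD_STZ (1.85% of all genes did not overlap, 1.61% higher and 0.238% lower) and for all members but Gpx4 with AOS. The members' share of calls was thus close to that of all genes. The interaction, which tests whether AOS acted differently with and without the diet and STZ, called 0 members (0%), with 5 at an unadjusted p under 0.05 (4.61%), 4 above 0 (2.88%) and 1 below (1.74%), and 27 fitted above 0 (56.4%). The F test of any difference among the 6 groups also called 0 (0.0432%), with 11 at an unadjusted p under 0.05 (21.1%), led by Sod1 (adjusted p 0.0940), Gsta4 (0.0966) and Txndc2 (0.108).

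**Figure D2:**
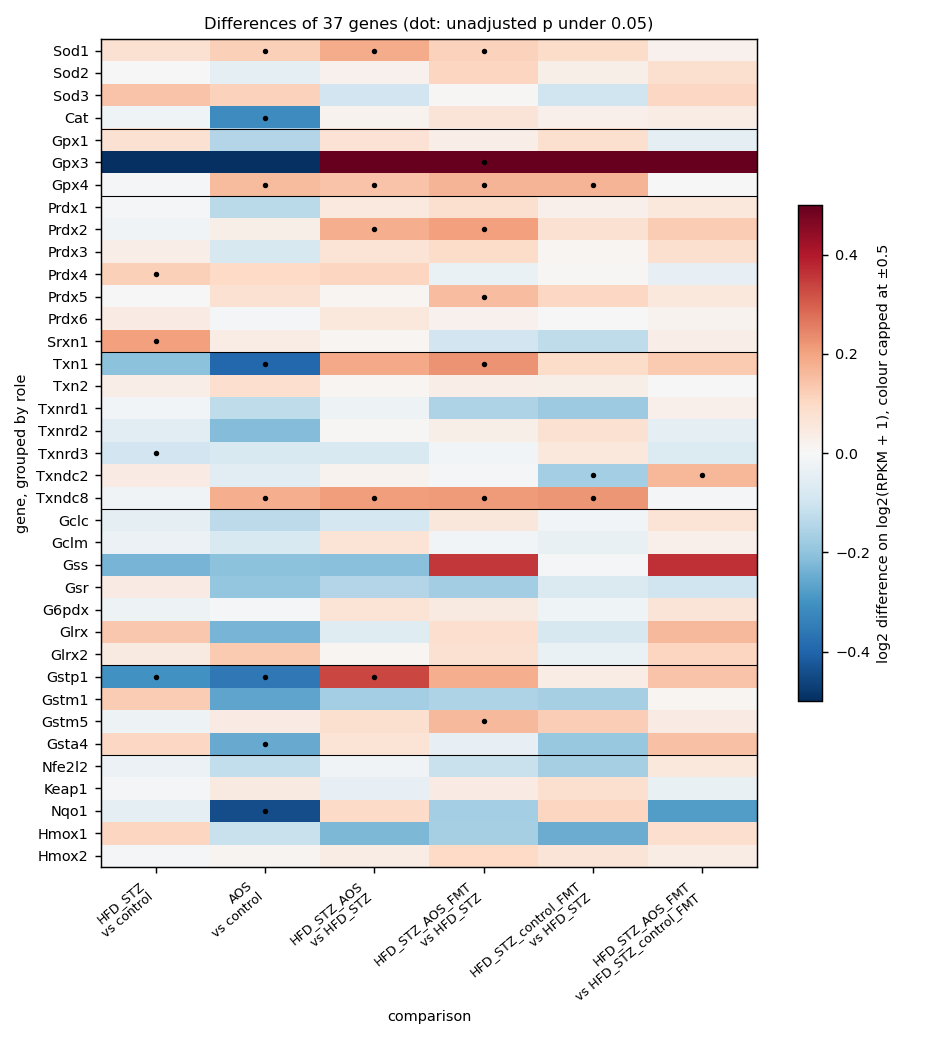
Log2 differences of the 37 genes (rows, grouped by role) in the 6 comparisons of 2 groups (columns), with colour capped at 0.5 in each direction and a dot for an unadjusted p under 0.05. No cell passed the adjusted threshold, and the rows with 3 or more dots are those of Gpx4, Txndc8, Sod1 and Gstp1.

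Among the superoxide dismutases, Sod1 (chr16:90220754-90226329) rose with AOS. Its levels were 295, 279.6 and 261 RPKM in control, 301, 309.9 and 298 in AOS, 289.7, 289 and 302 in HFD_STZ and 319.7, 341 and 341 in HFD_STZ_AOS. Of the 6 libraries with AOS, 4 lay above all 6 without it. The AOS main effect was 318 ± 19.1 against 286 ± 14.2 RPKM (n = 6 each), a log2 difference of 0.15 ± 0.04 with a limma adjusted p of 0.0464. The call was lost when any of 13 single libraries was left out (all 3 of control, of AOS and of HFD_STZ_AOS, replicates 1 and 2 of HFD_STZ, replicate 2 of HFD_STZ_AOS_FMT and replicate 3 of HFD_STZ_control_FMT), with adjusted p up to 0.111. Without the 4 libraries of high epididymal markers the log2 difference was 0.12 and the adjusted p 0.0874. The FMT groups stood at 324, 327 and 302 RPKM with AOS-FMT and at 337, 294 and 308 with control-FMT.

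The other genes of this role did not pass any test. Sod2, the mitochondrial form, kept to 27.1 to 35.5 RPKM and Sod3, the secreted form, to 18.4 to 23.1 RPKM over the 18 libraries. Cat, the peroxisomal catalase, had 3.39, 4.99 and 4.68 RPKM in AOS and 5.67, 5.88 and 5.25 in control, and the groups did not overlap (log2 difference -0.31 ± 0.11, adjusted p 0.266). Ccs, the copper chaperone that loads SOD1 and is not one of the 37, rose with the diet and STZ, as given below.

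Among the glutathione peroxidases, Gpx4 (chr10:80047166-80056439) had a higher mean in each group with AOS or FMT than in control and HFD_STZ. Its levels were 1275, 1199.6 and 1275 RPKM in control, 1179.7, 1245 and 1299.8 in HFD_STZ, 1357, 1419.7 and 1412 in AOS and 1429.9, 1363 and 1321 in HFD_STZ_AOS. The 6 libraries with AOS did not overlap with the 6 without it, which held for 1 of 37 members and for 3.26% of all genes (1.16% higher and 2.1% lower). The AOS main effect was 1384 ± 43.1 against 1246 ± 47.2 RPKM (n = 6 each), a log2 difference of 0.15 ± 0.04 that missed the threshold with a limma adjusted p of 0.0520. It passed in 5 of 26 alternative settings, among them without replicate 3 of HFD_STZ (0.0457), replicate 1 of HFD_STZ_AOS_FMT (0.0302) or replicate 3 of HFD_STZ_control_FMT (0.0429). With FMT the levels were 1483, 1334 and 1369.9 RPKM for AOS-FMT and 1474, 1432 and 1288 for control-FMT. Against HFD_STZ, the log2 difference was 0.14 ± 0.06 for HFD_STZ_AOS (adjusted p 0.305), 0.17 ± 0.06 for AOS-FMT (0.222) and 0.17 ± 0.06 for control-FMT (0.174), all sharing the same HFD_STZ libraries. Between the FMT groups it was -0.0011 ± 0.06.

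Elongating spermatid markers moved alongside. Their sum was 51129 to 57431 RPKM in control and 52514 to 58340 in HFD_STZ, against 62478 to 64148 in AOS, 58684 to 66965 in HFD_STZ_AOS, 57163 to 67898 with AOS-FMT and 57487 to 63209 with control-FMT. The means of the groups with AOS or FMT thus lay higher for these markers as they did for Gpx4, Txndc8 and Sod1. The marker ranges of both FMT groups overlapped with HFD_STZ. The sperm genes Txnrd3 and Txndc2 did not move this way. Txnrd3 was lower in AOS and HFD_STZ_AOS than in control, and Txndc2 was lowest with control-FMT. The part of spermatid RNA in these differences was not tested. Leydig cell markers summed to 2538 to 3439 RPKM in AOS and 3471 to 3967 in control.

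**Figure D3:**
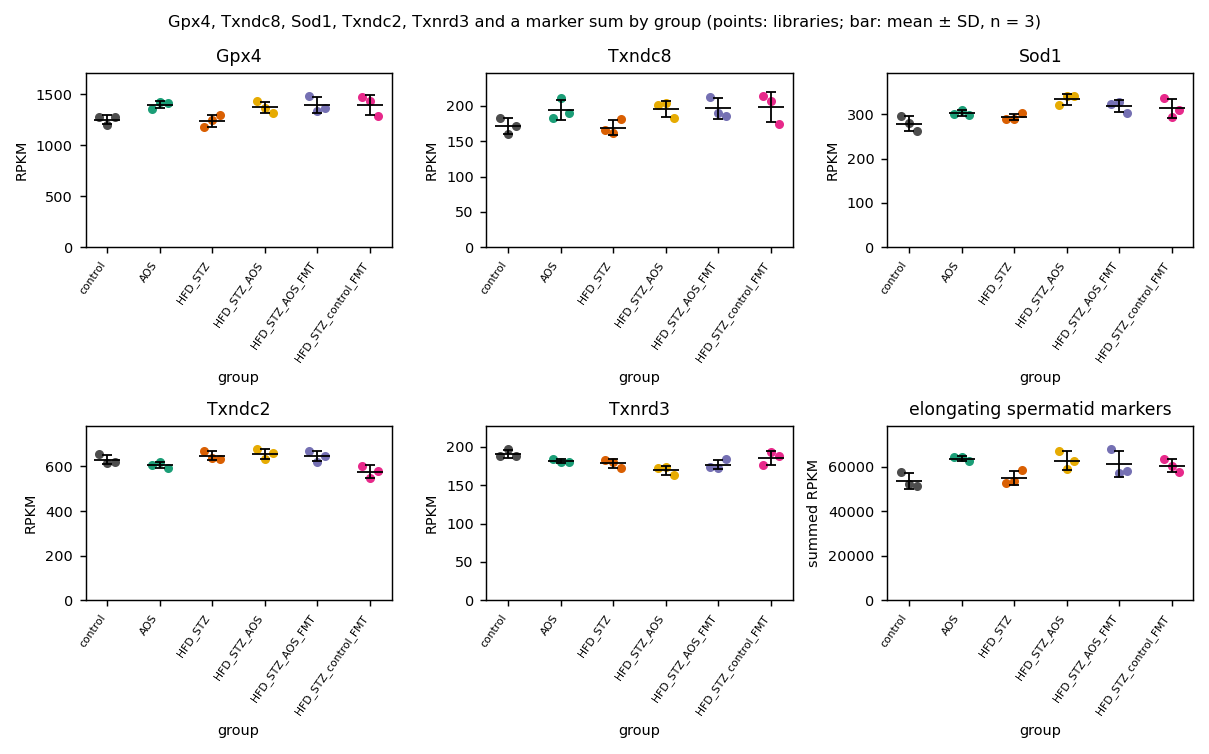
Level in RPKM of Gpx4, Txndc8, Sod1, Txndc2 and Txnrd3 and the summed level of 8 elongating spermatid markers in the 6 groups, with points for libraries and bars for mean ± SD (n = 3). Gpx4, Txndc8 and the marker sum have their lowest means in control and HFD_STZ, while Txndc2 is lowest with control-FMT (577 RPKM) and Txnrd3 highest in control (191 RPKM).

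Gpx3, the secreted peroxidase, varied more between libraries than any other member and was highest in the 4 libraries of high epididymis markers. Its levels were 12.7, 10.8 and 59.4 RPKM in control, 9.57, 9.83 and 8.30 in AOS, 9.98, 13.9 and 11.2 in HFD_STZ and 9.07, 11.4 and 67.5 in HFD_STZ_AOS. They were 21.6, 27.4 and 68.0 RPKM with AOS-FMT and 14.2, 38.9 and 22.1 with control-FMT. The 4 libraries with epididymis markers above 200 RPKM held 38.9 to 68.0 RPKM of Gpx3, against 8.30 to 27.4 in the other 14. The log2 difference of AOS-FMT against HFD_STZ was 1.49 ± 0.67 (limma adjusted p 0.326), and without those 4 libraries it was 1.01 ± 0.18 (0.113). Adipocyte markers also differed between these groups without overlap, at 52.3, 68.2 and 145.5 RPKM with AOS-FMT against 24.9, 26.4 and 14.5 in HFD_STZ, and their part in the Gpx3 difference was not tested. With the 6 libraries high in Crisp1 left out, which leaves 1 library in each FMT group, the log2 difference of Gpx3 was 0.84. The AOS-FMT library left there, replicate 1, held 42.8 RPKM of summed epididymis markers. Replicate 2, also kept when only the 4 libraries were left out, held 24.5 RPKM. The 3 HFD_STZ libraries held 2.89 to 3.63 RPKM, and the part of the remaining epididymal RNA in the Gpx3 difference was not tested. In control against AOS the library of replicate 3 decided the value: the log2 difference of AOS was -1.07 ± 0.67 with it and -0.32 ± 0.18 without the 4 libraries. Gpx5, the peroxidase of the epididymis, was at 22.2 RPKM in replicate 1 and 10.0 in replicate 3 of HFD_STZ_AOS_FMT and at most 0.860 elsewhere. Gpx1, the cytosolic form, stood between 18.2 and 34.3 RPKM and did not pass any test.

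**Figure D4:**
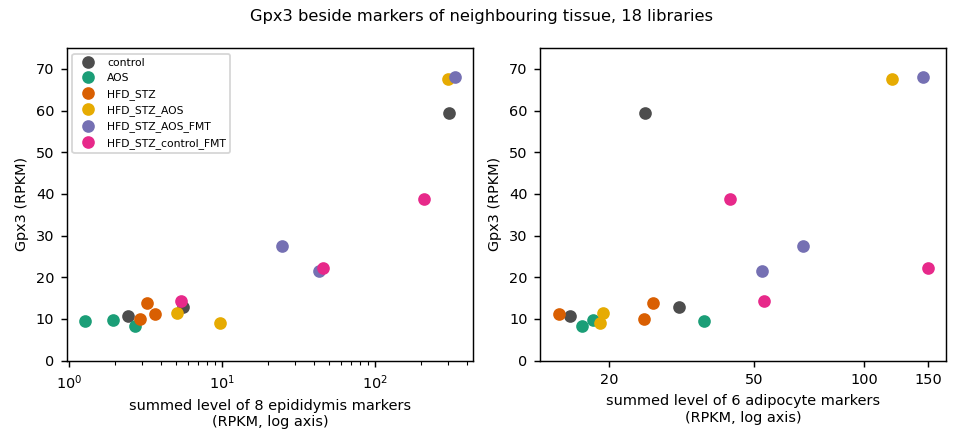
Gpx3 in RPKM against the summed level of 8 epididymis markers (left) and of 6 adipocyte markers (right), with the marker sums on log axes and Gpx3 on a linear axis, and 1 point for each of the 18 libraries coloured by group. The 4 libraries beyond 200 RPKM of epididymis markers hold the 4 highest Gpx3 values (38.9 to 68.0 RPKM), and in adipocyte markers the 3 AOS-FMT libraries (52.3 to 145.5 RPKM) lie above the 3 of HFD_STZ (14.5 to 26.4).

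The peroxiredoxins, which reduce peroxides with thioredoxin, held summed levels of 369 to 432 RPKM together with sulfiredoxin. Srxn1 (sulfiredoxin, which repairs overoxidised peroxiredoxins) had 16.2, 14.5 and 15.4 RPKM in control, 16.6, 15.8 and 15 in AOS, 18.9, 17.4 and 17.1 in HFD_STZ and 20.4, 15.7 and 18.1 in HFD_STZ_AOS. HFD_STZ did not overlap with control, and HFD_STZ_AOS overlapped through its replicate 2. The HFD_STZ main effect on Srxn1 was 17.9 ± 1.61 against 15.6 ± 0.769 RPKM (n = 6 each), a log2 difference of 0.19 ± 0.05 with a limma adjusted p of 0.0629. It was 0.24 with an adjusted p of 0.0089 without replicate 2 of HFD_STZ_AOS. Over the 26 alternatives it passed in 2, and the log2 difference ran from 0.12 to 0.24. Both FMT groups lay below HFD_STZ without overlap, at 16.6 ± 0.367 RPKM for AOS-FMT and 16.2 ± 0.514 for control-FMT, with adjusted p of 0.559 and 0.394.

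Prdx4 had 114, 124 and 116 RPKM in control, 123, 131 and 125 in AOS, 129, 128 and 129 in HFD_STZ and 143, 129.8 and 143 in HFD_STZ_AOS. HFD_STZ lay above control and HFD_STZ_AOS above HFD_STZ, without overlap. The HFD_STZ main effect on Prdx4 was a log2 difference of 0.12 ± 0.04 (limma adjusted p 0.0857). It passed without replicate 2 of HFD_STZ_AOS (0.15 ± 0.04, 0.0347) and in no other alternative. The AOS main effect on Prdx4 was 0.10 ± 0.04 (0.137). Prdx2, a cytosolic peroxiredoxin abundant in red cells, had 26.3, 27.3 and 28.1 RPKM in HFD_STZ, 30.1, 31.4 and 31.5 in HFD_STZ_AOS, 30.7, 34.0 and 29.9 with AOS-FMT and 30.8, 30.3 and 25.4 with control-FMT. HFD_STZ_AOS and AOS-FMT lay above HFD_STZ without overlap (log2 differences of 0.18 ± 0.07 and 0.20 ± 0.07, limma adjusted p 0.305 and 0.239). Erythroid markers summed to 152 to 211 RPKM in HFD_STZ, 108 to 175 in HFD_STZ_AOS, 81.6 to 110.4 with AOS-FMT and 130 to 144 with control-FMT. The part of red cell RNA in the Prdx2 levels was not tested. Prdx1, Prdx3, Prdx5 and Prdx6 stood at means of 61.0, 15.4, 93.8 and 49.9 RPKM, and no limma test called any of them. Prdx6b, a near-identical copy of Prdx6, was listed at 143 RPKM, and how the counting shared reads between them is not given in the sources used here.

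In AOS against control the sperm thioredoxin Txndc8 was higher and the somatic Txn1 lower, and neither difference passed. Txndc8 (chr4:57984027-58009124), a thioredoxin of the spermatid Golgi and acrosome, had 182, 159.8 and 171 RPKM in control, 182, 210.2 and 190.2 in AOS, 165, 161 and 181 in HFD_STZ and 200.4, 204 and 182 in HFD_STZ_AOS. The AOS main effect was 195 ± 11.7 against 170.1 ± 9.68 RPKM (n = 6 each), a log2 difference of 0.19 ± 0.06 with a limma adjusted p of 0.0774, and 2 libraries with AOS (182.16 and 182.26 RPKM) lay just below the highest library without it (182.48, replicate 1 of control). Against HFD_STZ, Txndc8 was higher by 0.21 ± 0.08 with AOS-FMT (adjusted p 0.274) and by 0.22 ± 0.08 with control-FMT (0.212).

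Txn1 (chr4:57943373-57956411), whose start lies 27615 bases from the end of Txndc8 (both genes are on the minus strand), was lower in AOS than in control. Its levels were 16.7, 14 and 15.6 RPKM in control, 11.5, 13.0 and 10.1 in AOS, 13.4, 11.9 and 14.4 in HFD_STZ and 13.3, 15.4 and 17.2 in HFD_STZ_AOS. AOS and control did not overlap, and the log2 difference was -0.39 ± 0.10 with a limma adjusted p of 0.161. With the diet and STZ the difference of AOS was 0.19 ± 0.10 (0.439), and the interaction of 0.58 ± 0.14 did not pass (0.677). In the same comparison of AOS with control, Txndc8 stood at 0.18 ± 0.08 (0.342).

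Txndc2 (chr17:65637507-65642168) was lowest with control-FMT. It had 602, 547 and 580.4 RPKM there, against 669, 621 and 648 with AOS-FMT and 671, 639.6 and 635 in HFD_STZ. The control-FMT libraries overlapped with neither group. The log2 difference from HFD_STZ was -0.17 ± 0.04 (limma adjusted p 0.125), and AOS-FMT lay above control-FMT by 0.16 ± 0.04 (0.905). These 2 values share the control-FMT libraries, which also lay below all 3 libraries of control (656, 616 and 620.2 RPKM). AOS was lower than control by a log2 difference of -0.06 ± 0.04 (limma adjusted p 0.590). Txnrd3, the thioredoxin and glutathione reductase of the testis, had 188, 197 and 188 RPKM in control, 184, 180.4 and 180.3 in AOS, 183, 181 and 172 in HFD_STZ and 172, 173 and 163 in HFD_STZ_AOS. Each of the 3 treated groups lay below control without overlap. The HFD_STZ main effect on Txnrd3 was a log2 difference of -0.10 ± 0.03 with a limma adjusted p of 0.0843. It became -0.13 (0.0499) with median ratio scaling and -0.14 (0.0488) with the transcript length trend removed. It passed in these 2 of 26 alternatives only, and over all 26 it ran from -0.14 to -0.08. Txn2, the mitochondrial thioredoxin, kept to 51.4 to 58.0 RPKM.

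The genes of glutathione synthesis and reduction did not pass any test with all libraries. Gclc and Gclm, the catalytic and modifier parts of the rate-limiting ligase, stood at 8.22 RPKM (7.10 to 9.22) and 19.5 RPKM (17.6 to 20.7). Gsr, which recharges glutathione, stood at 4.23 RPKM and G6pdx, a source of NADPH, at 8.0. In AOS against control 6 of the 7 genes of this role were lower, with a median log2 difference of -0.13 against -0.03 for all genes. In control-FMT against HFD_STZ 7 of 7 were lower, with a median of -0.03 that equals the all-gene median of -0.03. Glutaredoxins remove glutathione from proteins, and of these Glrx had a HFD_STZ main effect of 0.22 ± 0.08 (5.01 ± 0.441 against 4.20 ± 0.797 RPKM, n = 6 each, limma adjusted p 0.164). It passed without replicate 2 of AOS (0.30 ± 0.07, 0.0410) and in no other alternative. Glrx2 kept to 43.4 to 54.3 RPKM.

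Among the glutathione transferases, Gsta4 (chr9:78182774-78209349), which couples glutathione to aldehydes from lipid peroxidation, rose with the diet and STZ. Its levels were 66.2, 62.5 and 62.5 RPKM in control, 48.5, 61.1 and 51.3 in AOS, 67.8, 66.3 and 71.5 in HFD_STZ and 63.7, 73.0 and 80.1 in HFD_STZ_AOS. Of the 6 libraries with the diet and STZ, 5 lay above all 6 without, and the AOS group lay below control without overlap. The HFD_STZ main effect was 70.4 ± 5.84 against 58.7 ± 7.08 RPKM (n = 6 each), a log2 difference of 0.26 ± 0.06 with a limma adjusted p of 0.0390. The single contrasts were 0.10 ± 0.09 for HFD_STZ against control (adjusted p 0.824) and -0.25 ± 0.09 for AOS against control (0.256), so the low AOS libraries entered the main effect, and the interaction was 0.32 ± 0.13 (0.999). Leydig cell markers summed to 2756, 3439 and 2538 RPKM in the 3 AOS libraries, and their part in the Gsta4 levels was not tested. The call was lost without any of 9 single libraries (all 3 of control and of HFD_STZ, replicates 1 and 3 of AOS and replicate 3 of HFD_STZ_AOS), with adjusted p up to 0.104, and without the 4 libraries of high epididymal markers the log2 difference was 0.22 (0.191). In the FMT groups Gsta4 stood at 66.8 ± 7.15 RPKM with AOS-FMT and 60.0 ± 1.77 with control-FMT.

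Gstp1, the pi-class transferase, had opposite differences of AOS without and with the diet and STZ. Its levels were 73.0, 68.9 and 90.6 RPKM in control, 65.4, 65.3 and 50.03 in AOS, 53.5, 64.2 and 70.0 in HFD_STZ and 82.4, 65.9 and 89.5 in HFD_STZ_AOS. AOS lay below control without overlap (log2 difference -0.36 ± 0.14, limma adjusted p 0.278), while HFD_STZ_AOS overlapped with HFD_STZ (0.33 ± 0.14, 0.326). The interaction was 0.69 ± 0.19 and did not pass (limma adjusted p 0.961). Gstp2, its close copy, was listed at a mean of 0.945 RPKM. Gstm5 had 2563, 2444 and 2399 RPKM in control, 2498, 2698 and 2432 in AOS, 2375, 2367 and 2538 in HFD_STZ, 2716, 2657 and 2345 in HFD_STZ_AOS, 2979, 2644 and 2537 with AOS-FMT and 2729, 2693 and 2505 with control-FMT. AOS-FMT overlapped with HFD_STZ (log2 difference 0.16 ± 0.07, adjusted p 0.295). Gstm1 had 609, 531 and 574 RPKM in control, 453, 584 and 406 in AOS, 632, 535 and 715 in HFD_STZ, 506, 579 and 581 in HFD_STZ_AOS, 478, 659.9 and 556 with AOS-FMT and 599, 568 and 504 with control-FMT. The sides of its AOS main effect overlapped (518 ± 76.0 against 599 ± 69.2 RPKM, n = 6 each, log2 difference -0.22 ± 0.10, limma adjusted p 0.213). The mu-class genes are alike in sequence, so reads may have been shared among them.

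**Figure D5:**
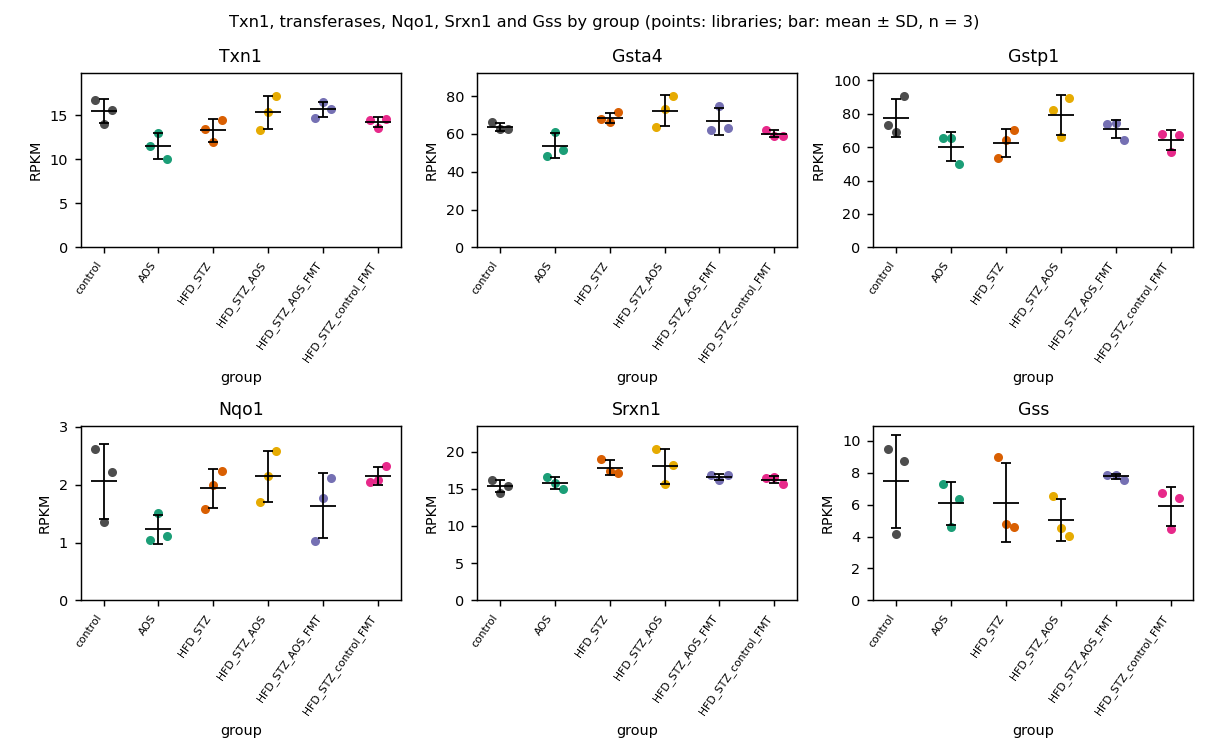
Level in RPKM of Txn1, Gsta4, Gstp1, Nqo1, Srxn1 and Gss in the 6 groups, with points for libraries and bars for mean ± SD (n = 3). Txn1, Gsta4, Gstp1 and Nqo1 have their lowest mean in AOS, Srxn1 is highest in HFD_STZ and HFD_STZ_AOS, and Gss has libraries on both sides of its largest step within 5 of the groups.

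The regulators and the best known NRF2 targets did not pass any test. Nfe2l2 had 13.3, 12.2 and 14.8 RPKM in control, 10.8, 12.4 and 13.6 in AOS, 13.0, 13.8 and 12.6 in HFD_STZ, 11.3, 12.7 and 15.2 in HFD_STZ_AOS, 10.9, 14.1 and 11.5 with AOS-FMT and 11.2, 11.2 and 12.6 with control-FMT. Keap1 had 16.3, 16.4 and 18.5 RPKM in control, 17.3, 16.3 and 19.3 in AOS, 16.2, 17.9 and 16.8 in HFD_STZ, 17.7, 15.8 and 16.0 in HFD_STZ_AOS, 16.99, 17.1 and 18.4 with AOS-FMT and 18.5, 18.3 and 17.2 with control-FMT. Control-FMT lay below HFD_STZ for Nfe2l2 by a margin within the rounding of these values (highest 12.56 against lowest 12.57 RPKM, log2 difference -0.16 ± 0.11, limma adjusted p 0.464). Nqo1 had 2.62, 1.35 and 2.22 RPKM in control and 1.05, 1.51 and 1.12 in AOS, which overlapped (log2 difference -0.44 ± 0.17, adjusted p 0.284). In the other groups Nqo1 ran from 1.03 to 2.59 RPKM. Hmox1 had 8.12, 8.18 and 9.65 RPKM in control, 7.34, 8.10 and 8.35 in AOS, 10.2, 8.72 and 9.20 in HFD_STZ, 6.19, 7.44 and 10.5 in HFD_STZ_AOS, 7.64, 8.34 and 8.78 with AOS-FMT and 8.86, 7.36 and 7.06 with control-FMT. HFD_STZ had the highest mean and overlapped with control and HFD_STZ_AOS. Hmox2 had 673, 649 and 623 RPKM in control, 647, 681 and 638 in AOS, 635, 640.2 and 654 in HFD_STZ, 701, 668 and 617 in HFD_STZ_AOS, 747, 672 and 653 with AOS-FMT and 679.9, 669.6 and 668 with control-FMT. AOS-FMT overlapped with HFD_STZ (log2 difference 0.10 ± 0.05, adjusted p 0.395). The 9 genes with the core of the antioxidant response element had a median log2 difference of -0.01 in HFD_STZ against control and -0.06 in AOS against control, and 0 of the 9 passed in either. Against HFD_STZ, 7 were higher in HFD_STZ_AOS (47.7% of all genes), 4 with AOS-FMT (43.7%) and 3 with control-FMT (41.1%). Between the FMT groups 9 of 9 were higher with AOS-FMT (53.9%), with a median of 0.04. Of all 37 members 28 were higher there, a count that fell to 17 without the 6 libraries high in Crisp1. Of the 9, 1 had an unadjusted p under 0.05 (4.58%) and 0 passed limma's test. In the HFD_STZ main effect 8 were higher (64.7%), 3 had an unadjusted p under 0.05 (18.8%) and 0 passed limma's test. In the AOS main effect 4 were higher (43%) and 1 passed, Sod1.

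A wider list of 104 genes of the same systems held 103 in the table, of which 92 were tested. In the HFD_STZ main effect 6 of the 92 passed, all higher (2.85% of all genes passed, 333 higher and 63 lower, a split that became 163 and 105 with median ratio scaling and 134 and 125 with the length trend removed). Ccs had 29.0, 26.4 and 28.1 RPKM in control, 30.2, 30.0 and 30.7 in AOS, 33.5, 29.0 and 33.1 in HFD_STZ and 36.0, 33.8 and 38.1 in HFD_STZ_AOS. Its HFD_STZ main effect was 0.21 ± 0.04 (limma adjusted p 0.0150), with replicate 2 of HFD_STZ inside the range of the other side. Gstm4, a mu-class transferase, had 9.68 ± 0.971 against 7.38 ± 0.620 RPKM (n = 6 each), without overlap (0.35 ± 0.06, limma adjusted p 0.0150). Akr1b3, an aldose reductase, had 128 ± 3.04 against 117 ± 2.48 RPKM (n = 6 each), also without overlap (0.13 ± 0.03, adjusted p 0.0189). Nme8, a thioredoxin of cilia and sperm tails (0.18 ± 0.04, adjusted p 0.0195), Txndc17 (0.26 ± 0.05, 0.0204) and Chac2, a glutathione-cleaving enzyme (0.37 ± 0.09, 0.0404), complete the 6. None of Ccs, Gstm4 and Akr1b3 passed without the 4 libraries of high epididymal markers, where 36 genes passed in all. Akr1b3 also missed the threshold with median ratio scaling (adjusted p 0.0683), with the length trend removed (0.0989) and without replicate 3 of AOS (0.0509).

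In the other comparisons 0 of the 92 passed limma's test. At an unadjusted p under 0.05 there were 13 (14.1%, against 8.3% of all genes) in HFD_STZ against control, 15 (16.3% against 13.9%) in AOS against control and 5 (5.43% against 12.5%) in HFD_STZ_AOS against HFD_STZ. There were 12 (13.0%) with AOS-FMT and 12 with control-FMT against HFD_STZ (14.5% and 16.2% of all genes), and 6 (6.52% against 4.58%) between the FMT groups. The interaction had 5 (5.43% against 4.61%), the AOS main effect 19 (20.7% against 20.7%), the F test 24 (26.1% against 21.1%) and the HFD_STZ main effect 29 (31.5% against 18.8%). Gsta3, an alpha-class transferase, had 32.3 ± 8.06 RPKM in control and 17.8 ± 4.43 in HFD_STZ (log2 difference -0.82 ± 0.20, adjusted p 0.276). Me1, the malic enzyme that makes NADPH, had 174 ± 3.04 RPKM in control, 149.98 ± 9.61 in AOS (adjusted p 0.171), 172 ± 0.836 in HFD_STZ and 148 ± 4.53 with control-FMT (adjusted p 0.125 against HFD_STZ). Cul3, the ubiquitin ligase partner of KEAP1, had 168 ± 4.0 RPKM in control and 151 ± 3.48 in AOS (adjusted p 0.186), and Mt2, a metallothionein, 392 ± 38.2 and 458 ± 8.86 (0.256).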

How the data were processed

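The authors deposited 1 table of testis RNA levels by gene symbol and library that names no unit. The deposited values were taken as RPKM from their sums, which differ between libraries, and from their lowest steps. This reading of the unit was not tested. Bowtie 0.12.2 and the build mm10 are named in the submitters' processing notes, while the counter, annotation and use of strand are not given in the sources used here. Of 20985 rows, 6 with 3 repeated symbols were left out, and 26 with date-like symbols were not named. Values were taken as log2(RPKM + 1), and the 13874 genes at 1 RPKM or more in at least 3 libraries entered a linear model in limma (version 3.58.1, R 4.3.3) over all 18 libraries with a trend of variance on the mean and 12 residual and 3.71 prior degrees of freedom. Main effects came from the same fit. Tables were made with Python 3.11.15. Relative depth came from 154 low genes, in a window that limits the spread it can show. GENCODE vM21 gave coordinates and lengths (97.9% of tested genes). On simulated data with 200 changed genes, 91.0% of those changed by 0.5 on the log2 scale were found for HFD_STZ against control, with 12 unchanged genes called, and 94.0% with 8 for the AOS main effect. The other changed genes moved by 1 or 2, and changes smaller than 0.5 were not simulated. Changed genes were drawn above a level that Nqo1, Txnrd2 and Gsr do not reach, with noise independent between libraries. These shares thus do not apply to low genes or to smaller differences. The members, gene lists and comparisons were chosen with earlier results of these data known. Genes named in full were those called in a comparison, or the 3 members of smallest p where fewer than 2 were called, the 6 highest members, the sperm and NRF2 genes, and up to 3 related genes a comparison by the same rule. The alternatives were median ratio scaling, no filter, a pseudocount of 0.1, fewer groups in the fit, a replicate block, removal of the length trend, the omission of 6 libraries high in Crisp1 (above 5 times the median), each library left out in turn and, added after seeing the data, the omission of 4 libraries with summed epididymis markers above 200 RPKM.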

Additional observations from a re-analysis of the deposited data

How the results depend on the processing

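Over 26 alternatives, 46 of 60 named values stayed on the same side of the threshold with the same sign, and of 1554 alternative values 1488 did so, 41 lost a call, 24 gained a call and 1 changed sign: Prdx2 between the FMT groups, at -0.0041 without the libraries high in Crisp1. The call of Gsta4 was lost in 15 alternatives and that of Sod1 in 17, and the cause was not tested. With 3 libraries a group and no total counts, small differences of low genes such as Nqo1 and Txnrd2 could not be resolved. Called members of the HFD_STZ main effect (1) were 0 without a filter, with only the groups of the comparison, without the libraries high in Crisp1 and without those above 200 RPKM of epididymis markers, and 2 with the replicate block, where Srxn1 joined Gsta4. With median ratio scaling and with the length trend removed the 1 called member was Txnrd3. Called members of the AOS main effect (1) were 0 without a filter, with the length trend removed and without the libraries above 200 RPKM. They were 3 with only the groups of the comparison. Gpx4 was called in place of Sod1 without the libraries high in Crisp1 and without replicate 3 of HFD_STZ_control_FMT. Without the libraries high in Crisp1, AOS-FMT against HFD_STZ was left with 1 AOS-FMT library. The log2 differences there were 0.84 for Gpx3 and 0.30 for Gstm5.
Among all genes, the HFD_STZ main effect (396) called 205 without a filter, 133 with only its groups, 259 with the length trend removed, 4 without the libraries high in Crisp1 and 36 without those above 200 RPKM. The AOS main effect (325) called 142, 565 and 78 under the first 3 of these and 76 under the last. HFD_STZ_AOS against HFD_STZ (0) called 1 without a filter and 2 without the libraries above 200 RPKM. AOS-FMT against HFD_STZ (2) called 16 without a filter, 4 with a pseudocount of 0.1, 1 with only its groups and 559 without the libraries high in Crisp1. Control-FMT against HFD_STZ (1) called 4 without a filter, 0 with only its groups and 2 with the replicate block. AOS-FMT against control-FMT (3) called 11, 6 and, without the libraries high in Crisp1, 8. The F test (6) called 18 without a filter and 10 with the replicate block. The AOS main effect split 180 higher and 145 lower, 152 and 68 with median ratio scaling and 51 and 27 with the length trend removed. With each library left out in turn, called members ranged from 0 to 3 for HFD_STZ, 0 to 2 for AOS and stayed at 0 elsewhere. Called genes ranged from 110 to 695 for HFD_STZ, 0 to 779 for AOS, 0 to 3 for HFD_STZ and for AOS against control, 0 to 2 for HFD_STZ_AOS against HFD_STZ, 2 to 7 and 1 to 14 for AOS-FMT and control-FMT against HFD_STZ, 2 to 5 between the FMT groups, 0 for the interaction and 3 to 157 for the F test. The labels do not say what a replicate number stands for. In the 6 compared pairs of groups, libraries of the same number had correlated deviations of -0.138 to 0.279 and in none of these pairs were all 3 over 0.1, so the fit without the block was kept. In 2 of the 15 pairs of groups all 3 were over 0.1 (control with HFD_STZ_AOS, 0.171 to 0.380, and with HFD_STZ_AOS_FMT, 0.105 to 0.411), and 11 of 18 libraries matched best with one of their own number, which is a hint from the data and not from the design. The replicate block changed no call among the members beyond that of Srxn1.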

Other observations

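Gss, which completes glutathione synthesis, had libraries on either side of a step that the groups did not share out evenly. It stood at 4.02 to 4.80 RPKM in 7 libraries and at 6.38 to 9.50 RPKM in the other 11, with a step of 1.33 times between them. Every gene has a largest step, so this step by itself does not show separate levels. None of the 7 was a replicate 1. The 7 were replicate 2 of control, AOS and HFD_STZ_control_FMT, replicates 2 and 3 of HFD_STZ and replicates 2 and 3 of HFD_STZ_AOS, while HFD_STZ_AOS_FMT had 7.85, 7.88 and 7.58 RPKM. The largest steps between neighbouring libraries among the other members were 1.53 times for Gpx3, 1.38 times for Cat (replicate 1 of AOS alone at 3.39 RPKM) and 1.31 times for Gpx1 (replicate 3 of AOS alone at 18.2 RPKM).

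Replicates 1 and 3 of AOS stood below all other libraries for Prdx1 (51.7 and 51.4 RPKM, others from 57.0), Gsta4 (48.5 and 51.3, others from 59.0) and Glrx (3.47 and 3.06, others from 4.16). Leydig cell markers summed to 2756 and 2538 RPKM in these libraries and to 3439 in replicate 2 of AOS. Replicate 3 of control-FMT also had a low sum, at 2656 RPKM. The part of Leydig cell RNA in these levels was not tested, and the same pattern was not counted over all genes.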
